A study of Homo sapiens with 160 samples.

Results

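Expression of 30 genes of cholesterol synthesis and of the sterol regulatory element-binding protein (SREBP) pathway was followed in BEAS-2B, a human airway epithelial line immortalised from bronchus. The genes were chosen by name and were found as 30 rows of the 29273 genes in the deposited table. They comprise 7 enzymes of the mevalonate pathway, 11 enzymes that turn farnesyl units into cholesterol, 5 regulators, 1 sterol transporter and 6 enzymes of fatty acid synthesis and desaturation. All 30 passed the filter on low values and were tested, and none was listed at 0 in any library.

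The study concerns how the genomic effects of a muscarinic agonist and a β-agonist meet in airway epithelial cells, here also with a glucocorticoid. Wild-type BEAS-2B cells were grown to confluence, kept overnight without serum, and treated with mometasone, indacaterol and carbachol together, with any pair of them (mometasone with indacaterol or with carbachol, and indacaterol with carbachol), with each agent alone, or with vehicle. Mometasone is a synthetic glucocorticoid, indacaterol a long-acting β-adrenoceptor agonist, and carbachol a stable analogue of acetylcholine. Mometasone and indacaterol were used at 100 nM and carbachol at 10 µM. RNA was sequenced after 1, 2, 6 and 18 h, and 150 of 160 samples were used, in 24 groups of 5 libraries, 6 groups of 4 and 2 groups of 3. Libraries were divided between 2 sequencing kits, and which library went with which kit is not in the labels, so kits could not be compared.

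Cells make cholesterol from acetyl-CoA through mevalonate and squalene. The transcription factors SREBP-1 and SREBP-2, encoded by SREBF1 and SREBF2, are made as precursors in the endoplasmic reticulum membrane. SCAP escorts them to the Golgi, where they are cleaved, and the INSIG proteins hold SCAP back when sterols are plentiful. The released factors bind sterol regulatory elements, often with NF-Y at a nearby CCAAT box, and switch on the genes of cholesterol and fatty acid synthesis, INSIG1 among them. Glucocorticoids act through the glucocorticoid receptor, and β-agonists through cyclic AMP.

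The promoter windows of 3 genes are shown as examples, and matches in them were not tested against the changes in mRNA. INSIG1 and HMGCS1 had the largest falls with mometasone at 6 h, and SREBF2 is the factor gene whose own mRNA was not called. Each window runs from 250 bases before to 50 bases after a RefSeq start on GRCh38.p14, and capitals mark matches, on either strand, to CACNCCAC (a shortened sterol regulatory element) or CCAAT. HMGCS1 has a second window, which held no match and is not shown. The windows lie at chr7:155297628-155297927, plus strand (INSIG1), chr5:43313363-43313662, minus strand (HMGCS1) and chr22:41832855-41833154, plus strand (SREBF2).
INSIG1: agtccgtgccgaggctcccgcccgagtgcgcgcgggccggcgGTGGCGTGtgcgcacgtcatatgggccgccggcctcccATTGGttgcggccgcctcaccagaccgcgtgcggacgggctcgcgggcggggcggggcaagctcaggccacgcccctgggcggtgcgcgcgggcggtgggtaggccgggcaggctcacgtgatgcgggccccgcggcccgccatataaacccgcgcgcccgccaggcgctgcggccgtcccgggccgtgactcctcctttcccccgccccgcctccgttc
HMGCS1: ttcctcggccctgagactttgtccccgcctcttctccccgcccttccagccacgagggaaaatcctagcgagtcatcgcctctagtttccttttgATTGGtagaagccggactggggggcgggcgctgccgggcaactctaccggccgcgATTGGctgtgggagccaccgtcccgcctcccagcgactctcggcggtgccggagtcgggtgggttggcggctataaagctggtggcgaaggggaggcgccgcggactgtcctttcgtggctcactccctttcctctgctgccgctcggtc
SREBF2: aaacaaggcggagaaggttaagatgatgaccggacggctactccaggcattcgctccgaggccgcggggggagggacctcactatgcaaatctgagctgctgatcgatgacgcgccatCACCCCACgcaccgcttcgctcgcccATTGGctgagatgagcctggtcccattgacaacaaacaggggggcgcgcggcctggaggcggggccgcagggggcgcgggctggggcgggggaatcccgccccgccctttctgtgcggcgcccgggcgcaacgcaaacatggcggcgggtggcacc

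RefSeq windows were matched for 26 of the 30 genes. CCAAT, searched on both strands, was found in 19 of the 26 (73.1%), against 39.7% of 27305 genes with a window. The longer element core TCACNCCAC was found in 1 gene, SREBF2 (3.85% of 26), against 1.39% of all genes, and its match contains the shorter CACNCCAC. That shorter core, added after the longer one had been searched, was found in 6 genes (23.1%), namely IDI1, SC5D, SREBF2, INSIG1, SCD and ACACA, against 7.05% of all genes. The E-box CACGTG, a special case of CANNTG, was found in 4 genes (15.4%), LSS, SC5D, SCAP and INSIG1, against 8.77% of all genes, and CANNTG in 18 (69.2%), against 73.1%. A match is a description of these letters and not a bound site.

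Values are given on the scale of the deposited table, a normalised signal deposited under the name TPM. Columns summed to between 847289 and 1498421, so the unit was not taken as TPM, and read depth is unknown. Mean values over the 150 libraries were between 18.4 (SC5D, an enzyme near the end of the pathway) and 1139 (FDPS, which makes farnesyl pyrophosphate), but levels of different genes are not compared because scaling by length is not stated. The agents could be told from known target genes: TSC22D3 (GILZ), a glucocorticoid-induced gene, was at 53.67 to 929.51 in libraries with mometasone and at 4.74 to 13.90 in those without. NR4A3, a cyclic AMP-responsive gene, separated libraries with indacaterol at 1, 2 and 6 h, but its ranges overlapped at 18 h. Of the 6 epithelial markers, KRT17 averaged 1131 (76.43 to 4950.9), KRT8 303 and KRT18 367, while EPCAM did not exceed 0.85, CDH1 did not exceed 7.84 and KRT5 averaged 1.20. Of the fibroblast markers, COL1A1 averaged 630 and PDGFRB 110, while COL1A2 averaged 1.63 and DCN 1.87. Of the leukocyte markers, the T cell gene CD3E was listed at 0 in 149 libraries, while PTPRC averaged 0.85 and CD14 0.96. PTPRC and CD14 were above 0 in every library. The endothelial markers PECAM1, VWF and CDH5 averaged 0.21, 0.25 and 0.13. The labelled epithelial identity therefore rests on keratins, with EPCAM near 0 and CDH1 low.

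The main comparison for each agent is its averaged effect, the log2 difference between libraries with and without the agent averaged over the 4 backgrounds of the other agents. Calls are at an adjusted p below 0.05 from limma with Benjamini-Hochberg adjustment over 14827 genes. The labels do not say that replicates were separate cultures, so each p-value reflects variation among these libraries, part or all of which could be technical.

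Without a replicate block, mometasone was followed by lower mRNA of most cholesterol and fatty acid genes, with calls mainly at 6 and 18 h. With the replicate number as a block, calls also came at 1 h and more at 2 h, as counted at the end. No gene of the 30 was called at 1 h, where 1.8% of all genes were called higher and 0.836% lower. At 2 h SREBF1 fell and no other member was called, against 3.59% of all genes lower and 4.98% higher. At that time 23 of the 30 averaged effects were negative. At 6 h 16 genes fell and none rose, against a background of 14.6% of all tested genes called lower and 18.4% called higher. At 18 h 22 fell and 1 rose, against backgrounds of 13.8% and 17.6%. The median averaged effect of the 30 genes was -0.31 at 6 h and -0.45 at 18 h, beside 0.02 and 0.05 over all genes. In bulk RNA, fewer cells of a type and less RNA per cell cannot be told apart.

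**Figure D1:**
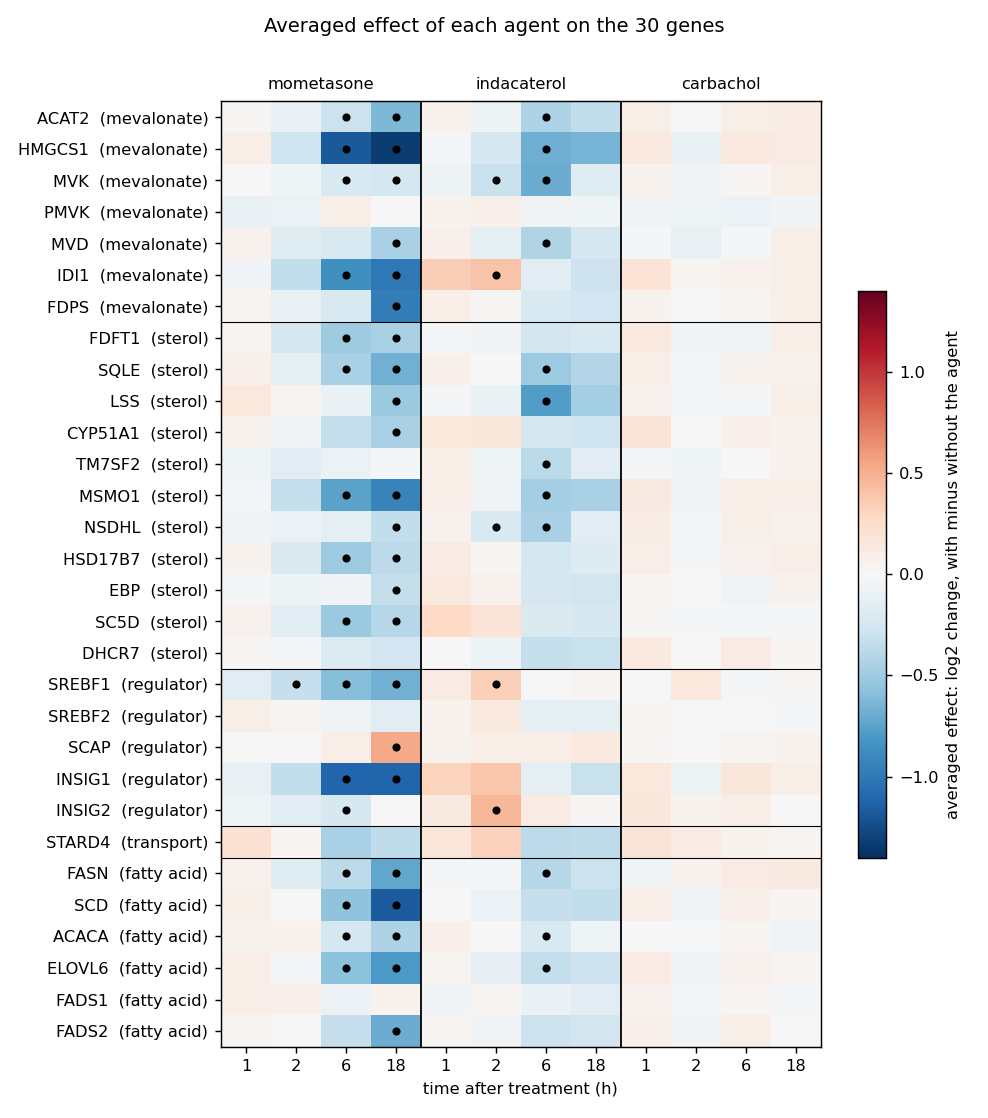
Averaged effect of mometasone, indacaterol and carbachol (columns, by time in h) on each of the 30 genes (rows, by role), as a log2 change of libraries with the agent minus libraries without it; black dots mark an adjusted p below 0.05. With mometasone 16 genes fell at 6 h and 22 at 18 h, with indacaterol 12 fell at 6 h, and the carbachol columns hold no dot.

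In the mevalonate pathway, HMGCS1 (chr5:43289395-43313512, minus strand; GENCODE 29 on GRCh38), which joins acetyl-CoA and acetoacetyl-CoA, showed the largest fall. At 6 h its values were 215.11, 573.76, 264.94, 521.81 and 106.68 (replicates 1 to 5) with mometasone and indacaterol. They were 384.78, 684.18, 316.96, 871.16 and 177.50 with mometasone alone, and 528.73, 963.33, 395.42, 1064.12 and 373.62 with indacaterol alone. Vehicle cells had 817.71, 1526.49, 1140.40, 1791.66 and 450.28. Each replicate number was lowest under the pair and highest in vehicle, but the spread between replicates was wide and the groups overlapped. The averaged effect of mometasone was -1.18 ± 0.23 (SE) at 6 h (adjusted p = 1.19e-05, limma) and -1.32 ± 0.26 at 18 h (adjusted p = 1.51e-05, limma). In linear terms the 18 h level was 0.399-fold that without mometasone.

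IDI1, which isomerises isopentenyl pyrophosphate, and FDPS followed different courses. IDI1 fell with mometasone by 0.86 ± 0.13 on the log2 scale at 6 h (adjusted p = 2.95e-08, limma) and by 1.01 ± 0.15 at 18 h (adjusted p = 1.19e-08, limma). At 6 h mometasone alone gave 137.74, 204.09, 103.64, 215.53 and 94.44, against 240.70, 355.38, 257.46, 369.53 and 167.43 in vehicle. Every replicate was lower with mometasone than its same-numbered vehicle, although the ranges overlapped.

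FDPS (chr1:155308748-155320666, plus strand) changed late. Its averaged effect was not called at 6 h, and at 18 h it was -0.97 ± 0.14 (adjusted p = 9.22e-09, limma). At 18 h mometasone alone gave 670.13, 516.84 and 610.82 (replicates 2 to 4) and vehicle 1378.76, 1061.13, 1088.81 and 1514.81 (replicates 2 to 5), with no overlap. The change of the effect between 6 and 18 h was itself called, at -0.76 ± 0.19 (adjusted p = 0.00314, limma). FDPS has 8 named pseudogenes in the table, and how reads were divided between copies is not given in the sources used here.

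For IDI1, FDPS and INSIG1 the 14 libraries with mometasone and the 18 without it did not overlap at 18 h. The lowest, median and highest IDI1 values were 85.43, 130.58 and 179.44 with mometasone, and 185.28, 256.94 and 330.29 without it. FDPS lay at 409.74, 571.87 and 734.81 with mometasone, and at 800.19, 1074.70 and 1514.81 without it. How many of all genes separated in this way is not given here. Genes called in either direction, a different measure, made up 31.5% of those tested in this comparison.

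The other mevalonate enzymes changed less. ACAT2, which makes acetoacetyl-CoA, fell at both 6 and 18 h, by 0.30 ± 0.12 and 0.63 ± 0.13. MVK, mevalonate kinase, fell by 0.21 ± 0.08 and 0.25 ± 0.09, and MVD, the decarboxylase, fell at 18 h by 0.45 ± 0.15. PMVK, phosphomevalonate kinase, stood at 0.00 ± 0.10 at 18 h, with a 95% interval from -0.19 to 0.19. In counts, 4 of 7 mevalonate genes fell at 6 h and 6 of 7 at 18 h. The 6 h call of ACAT2 ended without replicate 1, 2, 3 or 5, without libraries over 20% mitochondrial signal, without the filter and with each time fitted alone, and the 18 h call of MVD ended without replicate 3. ACAT2 shares exon bases with SOD2 and TCP1 on the opposite strand and MVK with MMAB, and whether reads were counted by strand is not given in the sources used here.

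Among the 11 enzymes from squalene to cholesterol, 5 fell with mometasone at 6 h and 9 at 18 h. MSMO1, the methyl sterol oxidase, led them, with averaged effects of -0.74 ± 0.13 at 6 h and -0.94 ± 0.15 at 18 h (adjusted p = 1.76e-06 and 1.27e-07, limma). At 18 h it had 171.79, 108.94, 140.94 and 113.27 with mometasone and indacaterol, against 429.80, 327.04, 395.72 and 304.50 in vehicle (replicates 2 to 5). The highest value under the pair was below the lowest in vehicle, a contrast that includes indacaterol as well. Against vehicle at 18 h, mometasone alone called 3 of the 30 genes lower and the pair 16. SQLE, squalene epoxidase, fell by 0.46 ± 0.15 at 6 h and 0.67 ± 0.17 at 18 h. FDFT1, squalene synthase, fell by 0.49 ± 0.14 and 0.46 ± 0.16, HSD17B7 by 0.51 ± 0.10 and 0.37 ± 0.11, and SC5D by 0.52 ± 0.13 and 0.40 ± 0.15. LSS, lanosterol synthase, CYP51A1, the lanosterol demethylase, NSDHL and EBP were called at 18 h and not at 6 h, falling at 18 h by 0.52, 0.45, 0.34 and 0.33. Those not called at 18 h were TM7SF2, a sterol reductase (-0.03 ± 0.10), and DHCR7, which makes cholesterol in the last step of one branch (-0.27 ± 0.16, 95% interval -0.59 to 0.04). HSD17B7 and CYP51A1 have named pseudogenes, so their values share that uncertainty.

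Left-out replicates ended some of these smaller calls. Without replicate 1 or 3 the adjusted p of SQLE at 6 h was 0.0580 to 0.0728 (limma). Without replicate 2 or 3 LSS at 18 h was at 0.0898 to 0.110, and without replicate 3 or 5 MVK at 18 h was at 0.0670 to 0.254. At 6 h the MVK call ended without replicate 1, 2, 3 or 5, at 0.0534 to 0.113, and with each time fitted alone (0.0553, limma). The 18 h calls of CYP51A1 and SC5D ended without replicate 2, 3 or 4 and without the filter, that of FDFT1 without replicate 2, 3 or 4, and that of EBP without replicate 2.

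Among the regulators, the 2 SREBP genes differed from each other. SREBF1 (chr17:17810399-17837002, minus strand) was lower with mometasone at 2, 6 and 18 h. Its averaged mometasone effect was -0.32 ± 0.06 at 2 h, -0.59 ± 0.06 at 6 h and -0.67 ± 0.07 at 18 h (adjusted p = 5.84e-06, 2.12e-16 and 2.43e-16, limma). At 6 h mometasone alone gave 37.02, 57.51, 38.08, 49.39 and 36.57, against 60.32, 60.84, 73.61, 74.64 and 62.58 in vehicle, without overlap. SREBF2 was not called, at -0.15 ± 0.08 (95% interval -0.30 to 0.00) at 18 h. Its 18 h values were 112.74, 119.55 and 119.57 with mometasone and 130.42, 129.65, 130.92 and 92.30 in vehicle. SREBF1 shares exon bases with RAI1 on the opposite strand.

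INSIG1 (chr7:155297776-155310235, plus strand), the sterol-responsive retention protein, fell by 1.11 ± 0.16 at 6 h (adjusted p = 3.13e-09, limma) and by 1.12 ± 0.18 at 18 h (adjusted p = 1.25e-07, limma). At 6 h mometasone alone gave 192.15, 274.64, 150.99, 338.81 and 131.80, against 368.81, 736.39, 431.40, 698.09 and 263.84 in vehicle. At 18 h the 14 libraries with mometasone spanned 116.09 to 271.10 (median 196.10), against 272.88 to 640.14 (median 420.16) in the 18 without. INSIG2, the isoform that depends less on sterol for its transcription, fell by 0.22 ± 0.09 at 6 h and stood at -0.01 ± 0.10 at 18 h. The 6 h call of INSIG2 ended without replicate 1, 2, 3 or 4, at adjusted p values of 0.0736 to 0.187 (limma). It ended too without the filter and without libraries over 20% mitochondrial signal (0.0808 to 0.0933, limma).

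SCAP (chr3:47413694-47477126, minus strand) was the 1 gene of the 30 that rose with mometasone. Its averaged effect was 0.10 ± 0.05 at 6 h, not called, and 0.54 ± 0.06 at 18 h (adjusted p = 3.25e-14, limma). At 18 h all 3 agents gave 96.50, 98.70 and 109.15 (replicates 2, 3 and 5), mometasone and indacaterol gave 89.76, 86.79, 94.45 and 109.51 (replicates 2 to 5), and vehicle gave 60.98, 50.57, 55.56 and 75.56. Neither combination overlapped with vehicle, and both include indacaterol. Mometasone alone also called SCAP higher than vehicle at 18 h, but that call ended in several settings, as given below. The rise of the averaged effect between 6 and 18 h was called, at 0.44 ± 0.08 (adjusted p = 6.14e-06, limma). SCAP and SREBF1, which act in 1 complex as proteins, thus moved in opposite directions as mRNA.

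**Figure D2:**
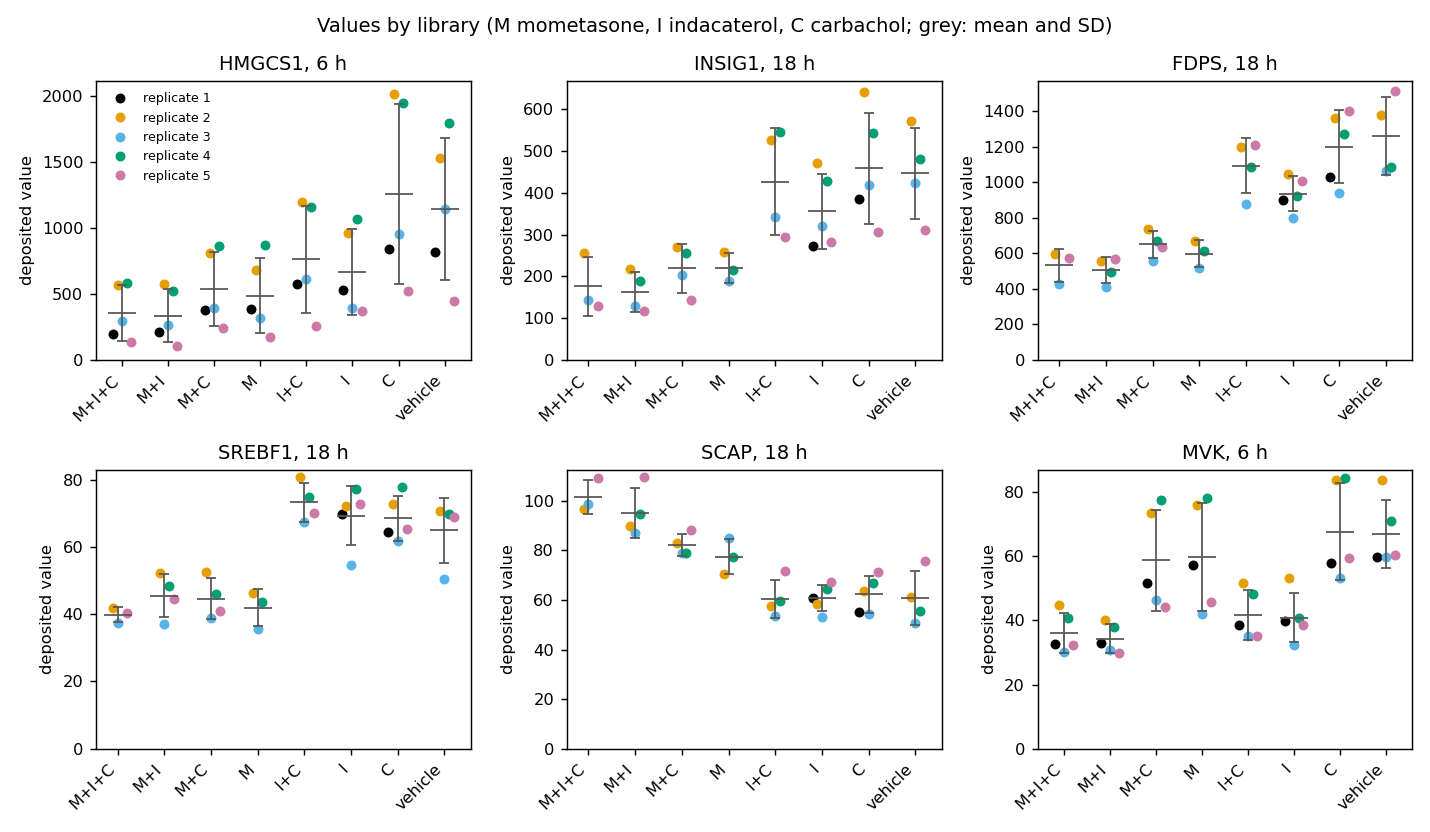
Deposited value in each library (dots, coloured by replicate number) for 6 genes in the 8 treatments, from all 3 agents at the left to vehicle at the right, with the mean and SD of each group in grey. HMGCS1 at 6 h fans out by replicate number in every treatment, the means of INSIG1, FDPS and SREBF1 at 18 h are lower and those of SCAP higher in the 4 groups with mometasone, and the means of MVK at 6 h are lower in the 4 groups with indacaterol.

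Of the fatty acid genes, 4 of 6 fell with mometasone at 6 h and 5 of 6 at 18 h. SCD, stearoyl-CoA desaturase, fell by 0.56 ± 0.19 at 6 h and by 1.17 ± 0.21 at 18 h (adjusted p = 0.0122 and 2.44e-06, limma). At 18 h it had 242.59, 143.45, 213.81 and 84.00 with mometasone and indacaterol, against 601.19, 568.36, 482.60 and 254.21 in vehicle. Replicate 5 was lowest in both groups, and the groups, which also differ in indacaterol, did not overlap. FASN, fatty acid synthase, fell by 0.72 ± 0.15 at 18 h, ELOVL6, an elongase, by 0.80 ± 0.13, FADS2, a desaturase, by 0.70 ± 0.15 and ACACA, acetyl-CoA carboxylase, by 0.44 ± 0.08. For ELOVL6 all 3 agents gave 15.08, 10.51 and 15.11 at 18 h (replicates 2, 3 and 5), against 34.82, 40.46, 25.60 and 20.58 in vehicle (replicates 2 to 5). That contrast includes indacaterol and carbachol. FADS1, which lies beside FADS2 on chromosome 11 and shares exon bases with it, stood at 0.05 ± 0.16, and the sterol carrier STARD4 at -0.36 ± 0.24, both uncalled. The 6 h call of SCD ended without replicate 3 (adjusted p = 0.0885, limma), and that of FASN without replicate 3 or 5 and with each time fitted alone. SCD and FADS2 have named pseudogenes.

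Libraries with mometasone also differed in other respects. At 6 h the summed level of the 6 epithelial markers ranged from 637 to 1592 with mometasone and from 1010 to 3230 without it. That sum ranged from 349 to 683 with mometasone at 18 h and from 984.8 to 1642 without it. The summed fibroblast markers ranged from 385 to 647 with mometasone and from 686 to 937 without it. The leukocyte markers summed to 1.47 to 3.83 with mometasone and 0.77 to 2.72 without it. Their part in the falls was not tested. The mitochondrial share at 18 h was alike, with medians of 10.5% and 10.6%.

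In the main fit, without a replicate block, indacaterol was followed by lower mRNA of 12 of the 30 genes at 6 h. Few calls came before and none after in this fit, although 27 of the 30 effects were negative at both 6 and 18 h. Only MVK had a called difference between those times. With the replicate number as a block, more of the 30 were called at 1, 2, 6 and 18 h, as counted at the end. At 1 h no gene was called, against 3.28% of all genes higher and 1.23% lower. At 2 h INSIG2, IDI1 and SREBF1 rose while MVK and NSDHL fell, against 8.13% of all genes called higher and 5.41% called lower, so 3 and 2 of 30 are near the background. At 6 h 12 genes fell and none rose, against backgrounds of 6.27% lower and 6.85% higher, and the median of the 30 was -0.28 beside 0.01 over all genes. At 18 h no gene was called, against 1.6% of all genes, while the median was -0.26 beside -0.0014 over all genes, and 10 of 30 had an unadjusted p below 0.05 beside 1294 of 14827 genes. The summed epithelial markers ranged from 1278 to 5920 with indacaterol and from 929.4 to 1959 without it at 2 h, and from 637 to 3230 with it and from 684.3 to 1466 without it at 6 h. Of libraries over 20% mitochondrial signal, 2 at 2 h and 1 at 6 h had indacaterol and 0 at those times lacked it. The part of either in these changes was not tested.

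At 2 h INSIG2 rose by 0.47 ± 0.09 (adjusted p = 1.43e-05, limma). Indacaterol alone gave 41.84, 57.05, 66.03, 67.18 and 52.73, against 35.32, 48.68, 40.61, 30.88 and 27.86 in vehicle, and each replicate number was higher with indacaterol. SREBF1 rose by 0.34 ± 0.06 (adjusted p = 1.48e-06, limma), with 115.23, 100.04, 78.69, 86.08 and 74.19 under indacaterol and 66.31, 71.42, 63.79, 56.12 and 60.91 in vehicle. Those groups did not overlap. IDI1 rose by 0.40 ± 0.13 (adjusted p = 0.025, limma), a call that ended without replicate 1, 2, 3 or 4 (adjusted p 0.0619 to 0.101). INSIG1 was at 0.39 ± 0.16, not called (adjusted p = 0.0985, limma). MVK fell by 0.31 ± 0.08 and NSDHL, a sterol dehydrogenase, by 0.22 ± 0.07. The NSDHL call ended without replicate 1, 3 or 5 (adjusted p 0.0501 to 0.167), and without the 6 libraries above 20% mitochondrial signal or with each time fitted alone (0.0556 to 0.0915).

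At 6 h the falls with indacaterol were spread over the pathway. They took 4 of 7 mevalonate genes, 5 of 11 sterol genes, 3 of 6 fatty acid genes and none of the 5 regulators. LSS, lanosterol synthase, fell most, by 0.78 ± 0.16 (adjusted p = 1.13e-04, limma). It had 64.95, 97.88, 41.11, 85.37 and 64.99 with indacaterol, against 113.20, 163.41, 162.75, 205.60 and 76.80 in vehicle. Every replicate number was lower with indacaterol, and the ranges overlapped. MVK fell by 0.70 ± 0.08 (adjusted p = 6.11e-13, limma), with 39.75, 53.05, 32.17, 40.68 and 38.57 under indacaterol and 59.66, 83.83, 59.67, 70.83 and 60.36 in vehicle. NSDHL fell by 0.46 ± 0.07 (adjusted p = 1.84e-07, limma), with 53.85, 57.21, 38.31, 56.90 and 46.97 under indacaterol and 68.64, 88.49, 70.56, 80.05 and 64.34 in vehicle. For MVK and NSDHL the groups did not overlap.

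The other indacaterol falls at 6 h were smaller or noisier. HMGCS1 fell by 0.68 ± 0.23 (adjusted p = 0.0338, limma), SQLE by 0.51 ± 0.15, MSMO1 by 0.48 ± 0.13, ACAT2 by 0.43 ± 0.12 and MVD by 0.42 ± 0.13. FASN fell by 0.40 ± 0.13, TM7SF2 by 0.38 ± 0.09, ELOVL6 by 0.33 ± 0.11 and ACACA by 0.22 ± 0.07. The HMGCS1 call ended without replicate 1, 2, 3 or 4 (adjusted p 0.0808 to 0.145) and that of SQLE without replicate 1 or 3 (0.0716 to 0.0800). The ELOVL6 call ended without replicate 2, 3, 4 or 5 (0.0660 to 0.161). Those of FASN without replicate 1, 2 or 3, MVD without replicate 2, 3 or 4, and ACACA without replicate 1 or 2 ended too. With each time fitted alone 7 genes were called in place of 12, and MSMO1 (adjusted p = 0.0506), HMGCS1 and ELOVL6 (0.0657 to 0.0738, without the filter or with each time alone) were among those lost.

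Effects at neighbouring times were compared directly. The indacaterol effect was lower at 6 h than at 2 h for LSS (-0.69 ± 0.23), IDI1 (-0.56 ± 0.19), MVK (-0.39 ± 0.11) and SREBF1 (-0.33 ± 0.08), against 5.18% of all genes. For MVK the effect was higher at 18 h than at 6 h by 0.53 ± 0.12 (adjusted p = 0.00135, limma), against 1.3% of all genes. For mometasone, the effect was lower at 6 h than at 2 h for HMGCS1 (-0.90 ± 0.33), INSIG1 (-0.76 ± 0.23), ELOVL6 (-0.55 ± 0.16), ACACA (-0.29 ± 0.10) and SREBF1 (-0.27 ± 0.08), against 7.15% of all genes. Between 6 and 18 h FDPS (lower) and SCAP (higher) were the members called, against 5.21% of all genes lower and 3.3% higher. The differences of LSS, IDI1 and HMGCS1 ended without replicate 1, 2, 3 or 4 (adjusted p 0.0663 to 0.271, limma), and that of INSIG1 without replicate 1 or 3 (0.0544 to 0.0684). For mometasone SREBF1 lost its call without replicate 3, 4 or 5 (0.0556 to 0.137) and ELOVL6 without replicate 3 (0.0587), and ACACA lost it without replicate 1, 2 or 3. MVK lost its call between 2 and 6 h without replicate 2 or 4 (0.0588 to 0.0989), and between 6 and 18 h without replicate 4 (0.0676).

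The averaged effects of the 2 agents were set against each other at each time, a comparison added after the values were seen. At 6 h mometasone left lower levels than indacaterol of INSIG1 (difference -0.97 ± 0.23), IDI1 (-0.70 ± 0.19), SREBF1 (-0.60 ± 0.08) and INSIG2 (-0.34 ± 0.13), against 10.3% of all genes. It left higher levels of LSS (0.69 ± 0.23), MVK (0.49 ± 0.11) and NSDHL (0.32 ± 0.10), against 11.6%. MVK, LSS and NSDHL thus fell more with indacaterol, and INSIG1, IDI1, SREBF1 and INSIG2 were lower with mometasone. At 2 h the same 4 genes IDI1, INSIG1, SREBF1 and INSIG2 were lower with mometasone, by 0.62 to 0.75 on the log2 scale, against 5.53% of all genes. At 18 h SCD, INSIG1, IDI1, SREBF1, FDPS, ELOVL6 and ACACA were lower and SCAP higher (0.39 ± 0.08), against 7.92% and 7.81%. The difference of LSS at 6 h ended without replicate 1, 2, 3 or 4 (adjusted p 0.0639 to 0.111, limma). Those of INSIG2 at 6 h (0.081 to 0.135) and SCD at 18 h (0.0565 to 0.231) ended without the same replicates. The INSIG1 differences at 2 and 18 h ended without replicate 2, 3 or 4 (0.0593 to 0.114), as did that of ELOVL6 at 18 h (0.0601 to 0.384). NSDHL at 6 h was lost without replicate 4 (0.0689), IDI1 at 18 h without replicate 3 (0.107) and FDPS at 18 h without replicate 5 (0.0526), and ACACA at 18 h without replicate 2.

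**Figure D3:**
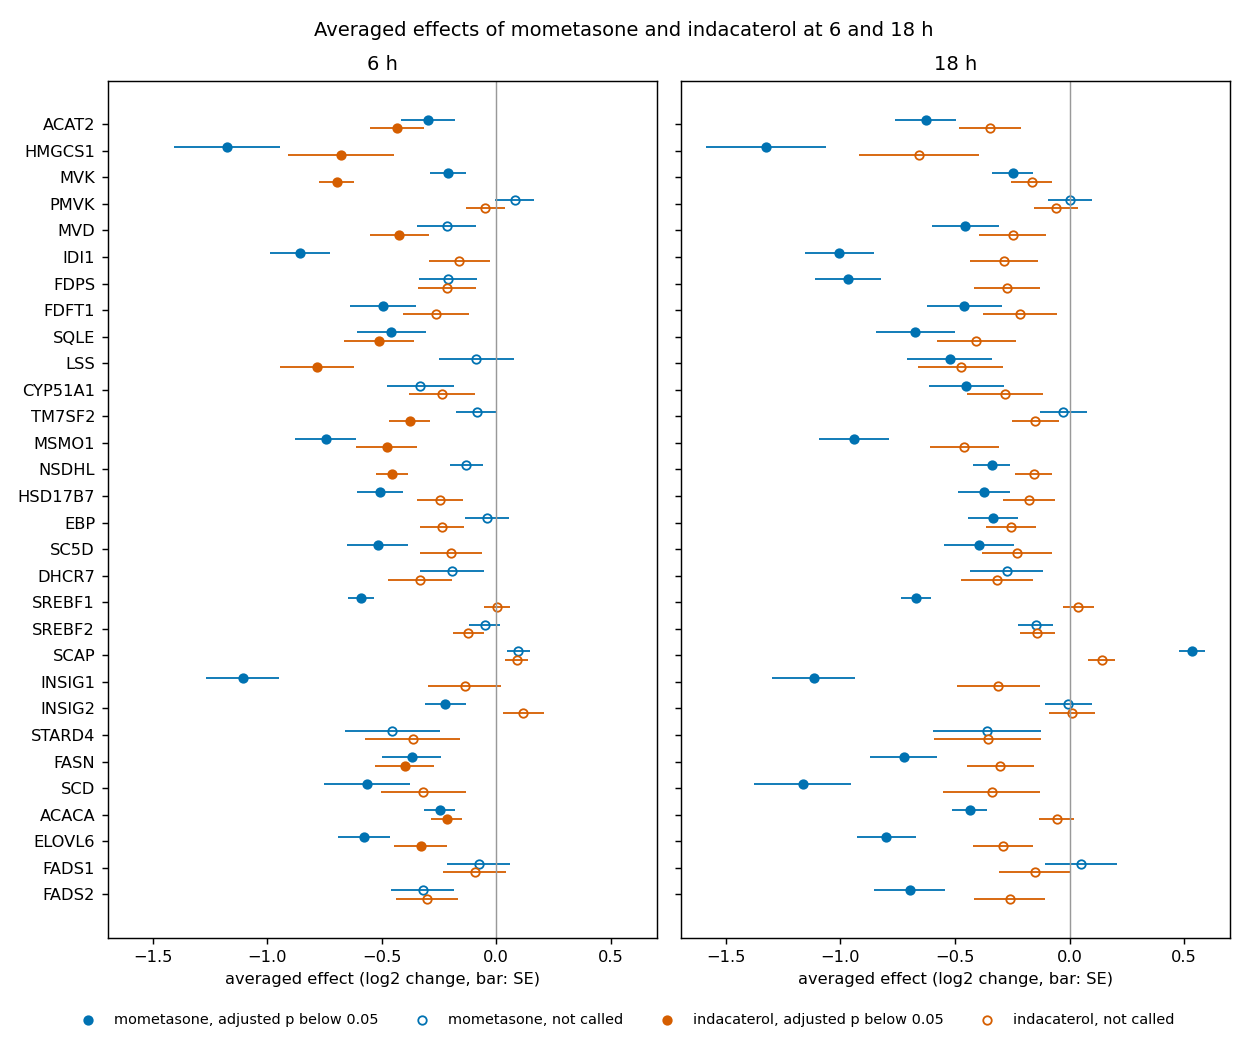
Averaged effects of mometasone (blue) and indacaterol (orange) on each of the 30 genes at 6 h (left) and 18 h (right), as log2 changes with their SE; filled points have an adjusted p below 0.05. At 6 h LSS, MVK and NSDHL lie further left with indacaterol and INSIG1, IDI1 and SREBF1 with mometasone, and at 18 h the filled points are all of mometasone.

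Carbachol was followed by no called change in these genes at any time, with averaged effects between -0.11 and 0.19. Over all genes its averaged effect called 0.189% at 1 h, 0.121% at 2 h and 0% at 6 and 18 h, by limma. At an unadjusted p below 0.05 there were 275 genes at 6 h and 150 at 18 h, and of the 30 genes 1 at 2 h, SREBF1 (0.15 ± 0.06), and 0 at the other times. Vehicle cells were also followed over time, with none of the 30 called at 2, 6 or 18 h against 1 h by limma, and 0 with an unadjusted p below 0.05, where 0.0135%, 0.324% and 0.121% of all genes were called. Interaction terms asked whether 2 agents together differed from the sum of their effects, and none of the 30 was called at any time. All genes called came to 0.614%, 1.17%, 0.735% and 0.121% for mometasone with indacaterol at 1, 2, 6 and 18 h, 0.0202% for indacaterol with carbachol at 2 h, and 0% for the remaining interactions. For mometasone and indacaterol the smallest unadjusted p was that of SCAP at 18 h (0.31 ± 0.12, unadjusted p = 0.00892, adjusted p = 0.945, limma). The smallest adjusted p of any member in that interaction was 0.329, at 1 h (limma). For HMGCS1 that interaction was 0.15 ± 0.46 at 6 h, with an interval from -0.77 to 1.06. The data are thus compatible with departures of either sign within that interval.

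More of the 30 genes were called under mometasone and indacaterol together than under either alone, although the difference between those counts was not tested. Against the same vehicle libraries, mometasone with indacaterol called 18 genes lower at 6 h (7.62% of all genes) and all 3 agents 16 (6.79%). Mometasone with carbachol called 3 (4.55%), mometasone alone 5 (4.24%), indacaterol with carbachol 1 (0.755%) and indacaterol alone 2 (0.803%). These comparisons share their vehicle libraries and are not independent. Single replicates weighed on the counts: at 6 h the pair called 11 without replicate 3, all 3 agents 10 without replicate 1 and 9 without replicate 2 or 3, and mometasone alone 2, 3 and 1 without replicates 1, 2 and 3. Mometasone with carbachol called 1 without replicate 2 or 3 and 6 without replicate 5, and indacaterol alone 1 without replicate 2 or 3. Indacaterol with carbachol called 2 without replicate 5. The HMGCS1 level with the pair was 0.276-fold that of vehicle at 6 h and 0.254-fold at 18 h (log2 changes of -1.86 ± 0.46 and -1.98 ± 0.52, adjusted p = 0.00126 and 0.00292, limma). SQLE had 56.56, 127.37, 84.92, 124.78 and 43.49 with the pair at 6 h, against 156.33, 201.36, 188.82, 202.12 and 107.92 in vehicle, and each replicate number was lower with the pair. For the pair against vehicle, HMGCS1 at 18 h lost its call without replicate 3 (adjusted p = 0.0566, limma) and SQLE at 6 h without replicate 1 or 3 (0.0586 to 0.0684).

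At 18 h the pair called 16 genes lower and SCAP higher (6.89% and 6.09% of all genes). All 3 agents called 12 lower and SCAP higher (5.89% and 4.87%), mometasone with carbachol 4 lower and SCAP higher (5.62% and 4.26%), and mometasone alone 3 lower and SCAP higher (4.96% and 4.14%). Indacaterol alone and with carbachol called none by limma (0.202% and 0.0944% of all genes). In both directions together, the pair called 11 in place of 17 without replicate 3, and all 3 agents 8 without replicate 2 and 4 without replicate 3, in place of 13. Mometasone with carbachol called 2 in place of 5 without replicate 2, 3 or 5. Mometasone alone called 2 in place of 4 without replicate 1, 3 or 4, 1 without replicate 2 and 8 without replicate 5. SCAP lost its call under mometasone alone without replicate 1, 2, 3 or 4 (adjusted p 0.0653 to 0.526, limma). It also lost that call without the filter, with each time fitted alone and with median-ratio scaling (0.0706 to 0.226, limma). Under mometasone with carbachol the SCAP call ended without replicate 3 (0.0823). HMGCS1 averaged 266 ± 106 with the pair and 1050 ± 394 in vehicle at 18 h (SD, n = 4 each). INSIG1 averaged 163 ± 48.3 with the pair and 446 ± 109 in vehicle.

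Replicate numbers pair the samples in several of these comparisons, by the rule that every same-numbered pair deviates together. With the replicate as a block, the pair at 18 h called 26 of the 30 genes (30.2% of all genes) in place of 17. All 3 agents called 9 in place of 0 at 2 h (17.4%), 27 in place of 16 at 6 h (31.3%), and 26 in place of 13 at 18 h (26.8%). Mometasone with carbachol called 7 in place of 0 at 2 h (5.65%) and 18 in place of 5 at 18 h (25.1%), and mometasone alone 5 in place of 0 at 2 h (5.02%). Indacaterol with carbachol called 7 in place of 0 at 1 h (16.9%), 8 in place of 3 at 2 h (12.2%) and 15 in place of 1 at 6 h (8.83%). Indacaterol alone called 8 in place of 2 at 2 h (10.2%) and 3 in place of 0 at 18 h (1.54%).

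The 30 genes also varied together between replicates, apart from treatment. Each library's deviation from its group mean was averaged over the 30 genes. At 6 h this deviation was positive in all 8 libraries of replicate 2 (mean 0.35 on the log2 scale, 0.28 to 0.40) and of replicate 4 (mean 0.36, 0.31 to 0.47). It was negative in all 8 of replicate 5 (mean -0.40, -0.48 to -0.19) and of replicate 1 (mean -0.13, -0.22 to -0.03). Replicate 5 was below its group mean at every time, with means of -0.34 at 1 h, -0.31 at 2 h and -0.25 at 18 h. What a replicate number stands for is not in the labels, and no cause was tested.

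**Figure D4:**
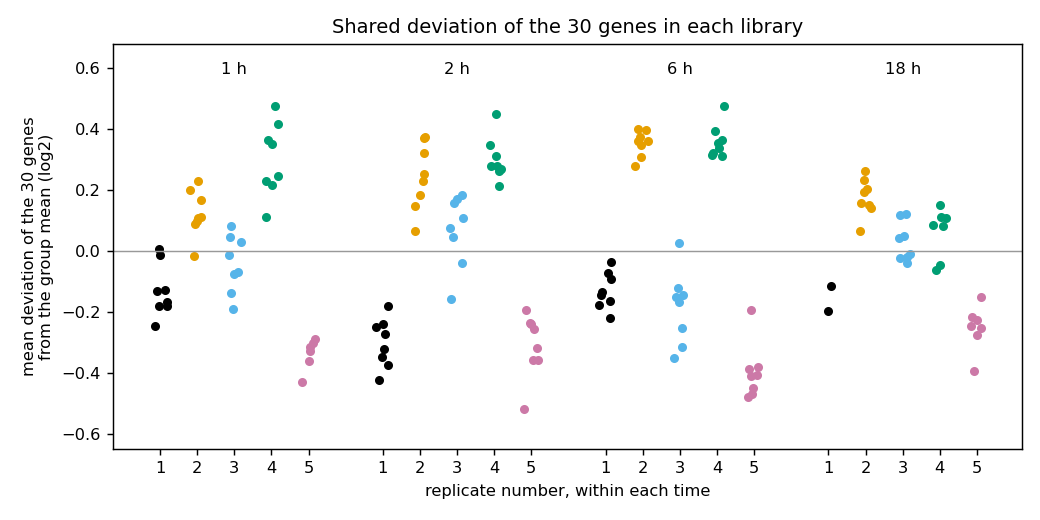
Mean deviation of the 30 genes from their group mean (log2) in each of the 150 libraries, by replicate number within each time. At 6 h replicates 2 and 4 lie above 0 and replicates 1 and 5 below it in every treatment, and replicate 5 lies below 0 at every time.

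Over 435 pairs of the 30 genes, deviations across 150 libraries had a median Pearson correlation of 0.57, with 248 pairs above 0.5 and 90 below 0, as a description of libraries that share replicate numbers. HMGCS1 and LSS had the highest median correlation with the other members (0.81 each), followed by SCD (0.78) and IDI1 (0.77). SCAP (-0.51) and PMVK (-0.45) ran against the others, and TM7SF2 (-0.14) and EBP (0.13) had little relation to them. SCAP thus differed in sign from most members both between treatments and between replicates. Across the 32 group means the gene most like INSIG1, of 14826 ranked, was IDI1 (r = 0.98), and HMGCS1 ranked 78 (r = 0.90), SCD 93 (r = 0.90), ELOVL6 123 (r = 0.89) and SREBF1 131 (r = 0.89). The next after IDI1 were SH2D4A, VGLL2, HTR1D and KLHL7 (r = 0.96 to 0.95). These group means share libraries' replicate numbers and are given without a test.

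Other genes of sterol and lipid metabolism were followed in 4 lists, with values of the averaged effects. Mometasone called 18.4% of all genes higher and 14.6% lower at 6 h, and 17.6% and 13.8% at 18 h. Indacaterol called 6.85% higher and 6.27% lower at 6 h. With 9 to 12 genes a list, counts of 1 or 2 are too few to set apart from these shares.

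NPC1, which moves cholesterol out of lysosomes, rose with indacaterol by 0.58 ± 0.08 after 1 h, by 1.26 ± 0.08 after 2 h and by 0.81 ± 0.08 after 6 h. Mometasone raised it by 0.66 ± 0.08 at 6 h. It was 1 of 9 tested genes of sterol handling, of which indacaterol called 1 higher and 2 lower at 6 h. LBR, a membrane protein with sterol reductase activity, fell with both agents at 6 h (mometasone -0.45 ± 0.10, indacaterol -0.51 ± 0.10). Of 9 genes that process SREBP or degrade its regulators, mometasone called 2 lower at 6 h and 1 higher at 18 h, MBTPS1, the site-1 protease (0.23 ± 0.05). Of 9 genes on other branches from isoprenoids, mometasone called 1 higher and 2 lower at 6 h and 0 at 18 h.

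Of 12 other lipogenic genes, mometasone raised 4 and lowered 2 at 6 h, and raised 4 and lowered 3 at 18 h. ACSL1, a fatty acid acyl-CoA synthetase, rose by 2.25 ± 0.06 at 6 h and 2.34 ± 0.07 at 18 h, and LPIN1, a phosphatidate phosphatase, by 2.22 ± 0.18 and 1.53 ± 0.21. ME1, malic enzyme, fell by 0.47 ± 0.10 and 0.85 ± 0.12, and ACLY, ATP citrate lyase, by 0.61 ± 0.19 at 18 h. With indacaterol at 6 h ACSS2, acetyl-CoA synthetase, fell by 0.55 ± 0.18 and TMEM97 by 0.34 ± 0.05. The list thus held large rises beside falls that ran with the fatty acid genes above.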

How the data were processed

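BEAS-2B RNA was sequenced in 160 samples. Per the submitters' processing notes, STAR 2.4.2a, bcl2fastq 2.17.1.14 and the build GRCh38 were used, with no roles listed; of the quantifier, strand setting and scaling these notes say nothing. Values deposited by the authors, named TPM, are a normalised signal for each gene, since columns summed to between 847289 and 1498421 (median 961146). The test planned for TPM, on log2(value + 1), was kept. Depth is unknown and no counting interval is given.

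Of the columns, 10 were left unused (4 marked excluded by the authors, 6 headed 8 h), and 0 pairs were identical. Groups follow the labels. A gene was tested when 5 or more libraries reached a value of 1 (14827 genes; 14446 left out). limma 3.58.1 (R 4.3.3, data.table, version 1.17.8) fitted 1 model of 32 groups with 118 residual degrees of freedom and a trend in the prior variance; p-values were Benjamini-Hochberg adjusted within each of 68 comparisons. Folds are powers of 2 on the log2(value + 1) scale and understate changes of low genes. Scripts were tested on simulated data. Figures used Python 3.11.15, pandas 2.3.3, numpy 2.4.6 and matplotlib 3.10.9.

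Members and lists were chosen with earlier results of these data known. Values are given in full for SREBF1, SREBF2, SCAP, INSIG1, INSIG2 and, in each averaged comparison, up to 6 called members with the largest change; further genes were named after their values were seen. Alternatives were a pseudocount of 0.1, no filter, median-ratio scaling, separate fits by time, leaving out libraries over 20% mitochondrial signal, leaving out each replicate, and a replicate block. Replicate numbers, from the sample labels, were taken to pair libraries where every same-numbered pair correlated above 0.1 in deviations from group means; this held in 17 of 28 comparisons with vehicle and, among averaged effects, for carbachol at 2 h. Gene positions and overlaps are from GENCODE 29, promoters from RefSeq on GRCh38.p14; 13 members share exon bases with a gene on the opposite strand and 5 have named pseudogenes. The liver X receptor and export list is not reported here.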

Additional observations from a re-analysis of the deposited data

Results flagged for a closer look

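The effect of indacaterol differed between 2 and 6 h for 4 genes, by the test of the difference itself (limma, Benjamini-Hochberg adjusted over all genes). The 6 h effect minus the 2 h effect was -0.6873 for LSS, -0.5641 for IDI1, -0.3859 for MVK and -0.3316 for SREBF1 on the log2 scale. Between 6 and 18 h the MVK effect changed by 0.5318. For mometasone the 6 h effect minus the 2 h effect was -0.8981 for HMGCS1, -0.7573 for INSIG1, -0.5469 for ELOVL6, -0.2925 for ACACA and -0.2694 for SREBF1. The 18 h effect minus the 6 h effect was -0.7568 for FDPS and 0.4385 for SCAP.

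For SREBF2 in vehicle at 18 h, replicate 5 (92.3) lay far below the other libraries, with a gap of 0.967 of the group's range. By chance about 1 in 20 groups pass the cut-off used, which this gap exceeded, and 35 groups were looked at.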

How the results depend on the processing

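No called result of the single genes followed changed direction under any alternative that was run. Of 162 settings of the counts of members called in the averaged effects and in vehicle over time, 147 kept the count within 1.5 times and 15 did not; of 706 settings of the other counts, 601 did and 105 did not. Of 1815 settings of single genes, 1604 kept the call or the lack of one, 185 lost the call and 26 gained it. An uncalled gene that changed sign and stayed uncalled was counted as kept. With the replicate block, the averaged effect of indacaterol called 3, 12, 26 and 22 genes at 1, 2, 6 and 18 h, that of mometasone 2 at 1 h and 9 at 2 h, that of carbachol 1 at 1 h, and vehicle at 18 h against 1 h called 1. Those comparisons failed the pairing rule, which a single weakly correlated pair is enough to fail. The lowest correlation of a same-numbered pair in them was between -0.34 and 0.066, while the medians were 0.235 to 0.408. Replicate numbers thus shared variation in part, and the main fit did not include them. Libraries correlated best with their own number in 29 of 38 cases at 1 h and 33 of 40 at 2 h. They did so in 30 of 40 at 6 h and 27 of 32 at 18 h. With each time fitted alone indacaterol called 7 genes at 6 h and 2 at 18 h, and without libraries over 20% mitochondrial signal mometasone called 2 at 2 h. With 1 replicate left out, indacaterol called 3 to 5 genes at 2 h and 7 to 12 at 6 h, and mometasone 10 to 17 at 6 h and 17 to 23 at 18 h. Shares of all genes called under these alternatives are not printed, so these counts cannot be told from a rise in calls over all genes. Causes were not tested. Fits by single time could not be run for differences between times. Depth is unknown, so precision rests on the number of libraries.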
